A study of Mus musculus with 6 samples.

Results

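Acyl-CoA thioesterases are enzymes that split fatty acyl-CoA into the free fatty acid and coenzyme A. The 10 genes Acot1, Acot2, Acot3, Acot4, Acot6, Acot7, Acot8, Acot9, Acot12 and Acot13 were selected by symbol. Of these, 9 had a probe set with exactly 1 gene symbol, among 22180 genes measured this way, and for Acot4, which had several, the brightest was used. Acot8 was covered by 1 probe set, which the annotation assigns to several genes, so no value is given for it. Expression was measured in total liver RNA of male C57BL/6N mice aged 2 months, on 1 Affymetrix whole-transcript array per sample. The 3 knockout samples (labelled cGK1-KO) came from mice lacking cGMP-dependent protein kinase 1, encoded by Prkg1, with the kinase restored in smooth muscle per the series design. The 3 control samples are labelled wild type. The promoter that drives the rescue, and whether controls carry any of its alleles, are not given in the sources used here. The question is which liver transcripts differ where only smooth muscle retains the kinase. All values are log2 expression, in which 1 unit is a 2-fold difference, from RMA, a method that corrects background and gives all arrays the same distribution of probe signals. Each group has n = 3 arrays throughout.

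Fatty acids entering the liver are activated to acyl-CoA, and acyl-CoA is the form that is oxidised, esterified or used as a signal. Thioesterases reverse the activation, and by freeing coenzyme A they keep oxidation supplied with it in mitochondria and peroxisomes. Acot1 to Acot6 encode enzymes of an alpha/beta-hydrolase family that arose by gene duplication, while Acot7, Acot8, Acot9, Acot12 and Acot13 belong to the unrelated hotdog-fold family. Several genes of the first family are known targets of PPARA, the nuclear receptor that senses fatty acids in hepatocytes.

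Array medians lay between 3.11 and 3.16, and correlations across genes, which are not independent replicates, were 0.978 to 0.983 among knockout arrays against 0.989 to 0.990 among controls. Knockout replicate 3 correlated with the controls at 0.981 to 0.983 and with the other knockout arrays at 0.978 and 0.979. The targeted gene does not check the labels, since its probe set lay near the median of the table (3.14) in both groups and no source used here says which part of the gene was deleted. Prkg1 read 3.31, 3.04 and 3.22 in knockout replicates 1 to 3, against 3.32, 2.97 and 2.95 in control replicates 1 to 3. Hepatocyte markers other than Ass1 were bright on every array. The mean log2 level over the 10 measured markers was 11.40 to 11.47 in the knockout and 11.37 to 11.52 in the controls. Ass1 read 4.53 to 5.30 over the arrays. In the limma fit, 0 of 22180 genes (0%) passed an adjusted p of 0.05, the smallest being 0.0613, and 2334 genes (10.5%) lay at an unadjusted p under 0.05.

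Of the 9 measured genes, 5 lie in an uninterrupted row of 6 thioesterase genes on chromosome 12, in the order Acot2, Acot1, Acot4, Acot3, Acot5 and Acot6, in the RefSeq table of assembly GRCm38.p6. The 250 bases before the start sites of Acot1, Acot2 and Acot4 are shown because these 3 genes lay lower at an unadjusted p under 0.05, as 5.46% of all tested genes did. In these genes every knockout array also lay below every control array, as in 9.14% of all genes. For Acot4 this held in the probe set used, while the groups overlapped in its second, dimmer probe set. Sequences are from RefSeq, GRCm38.p6, plus strand, 5′ to 3′, at chr12:84009252-84009501 for Acot1, chr12:83987611-83987860 for Acot2 and chr12:84038129-84038378 for Acot4. Capitals mark the CCAAT box and the nuclear receptor half-site AGGTCA on either strand.
Acot1: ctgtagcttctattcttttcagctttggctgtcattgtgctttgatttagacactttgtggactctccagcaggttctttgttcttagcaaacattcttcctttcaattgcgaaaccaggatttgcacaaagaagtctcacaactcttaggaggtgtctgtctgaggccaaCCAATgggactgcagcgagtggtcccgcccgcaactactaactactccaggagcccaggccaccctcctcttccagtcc
Acot2: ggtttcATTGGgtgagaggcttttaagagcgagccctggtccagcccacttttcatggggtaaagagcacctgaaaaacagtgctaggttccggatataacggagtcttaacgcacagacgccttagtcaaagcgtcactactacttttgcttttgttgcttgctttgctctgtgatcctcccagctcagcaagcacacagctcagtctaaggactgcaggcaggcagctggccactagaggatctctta
Acot4: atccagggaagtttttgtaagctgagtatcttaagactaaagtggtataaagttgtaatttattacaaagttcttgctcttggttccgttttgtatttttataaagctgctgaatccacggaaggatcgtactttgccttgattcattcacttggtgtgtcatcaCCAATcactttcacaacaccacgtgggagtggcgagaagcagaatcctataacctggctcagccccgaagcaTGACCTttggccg
The half-site AGGTCA is the element that PPARA and related receptors bind as a spaced pair. It was found in the windows of 3 of the 8 selected genes with an entry, Acot4 (position -13 from the start site), Acot12 (-110) and Acot3 (11 or 18 bases after its start sites), and in 16.3% of all 32851 promoter windows of 300 bases. The paired form AGGTCANAGGTCA was in 0.04% of all windows, and the relaxed form AGGNCANAGGNCA, which includes it, in 0.381%. Neither matched letter for letter in the windows of these 8 genes, Acot8 among them, and near matches were not searched. The CCAAT box was present in 37.4% of all windows and in those of 6 of these 8 genes. It lay at -79 in Acot1, -244 in Acot2 and -85 in Acot4. These are matches of letters within short windows, and binding was not measured.

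Acot1, which encodes the cytosolic enzyme for long-chain acyl-CoA, and Acot2, which encodes the mitochondrial matrix enzyme for similar substrates, had the largest differences among the 9 genes. Acot1 read 6.61, 6.61 and 5.63 in knockout replicates 1 to 3 and 7.79, 7.88 and 8.27 in the controls. Every knockout array lay below every control array, and knockout replicate 3 lay lowest. The means were 6.28 ± 0.57 (SD, n = 3) and 7.98 ± 0.26 (SD, n = 3), a difference of -1.70 (SE 0.26, 95% interval -2.30 to -1.10) or 3.25-fold lower. The limma adjusted p over all genes was 0.117, so Acot1 did not pass. The exact 2-sided permutation test gave p = 0.1, the smallest that 3 against 3 arrays allow. Without knockout replicate 3 the difference was smaller, -1.37, but its limma adjusted p was 0.0215, in a fit where 66 genes (0.298%) passed. With a variance prior that followed signal intensity the limma adjusted p of Acot1 was 0.0443, where 0.113% of all genes passed. Over its 14 alternatives the adjusted p ranged from 0.0215 to 0.456. In RNA of whole liver, fewer cells of a type and less RNA per cell cannot be told apart from 1 gene alone. On the same arrays the 10 hepatocyte markers had a median difference of 0.00, with 5 below 0 and 5 above. They ranged from -0.38 in Tat to 0.43 in Fgb. What part cell numbers had in the Acot1 difference was not tested.

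Acot2 read 8.18, 8.25 and 6.73 in knockout replicates 1 to 3 and 9.19, 9.002 and 9.37 in the controls. The groups did not overlap here either, and knockout replicate 3 again lay lowest. The difference was -1.47 (SE 0.35, 95% interval -2.27 to -0.67), or 2.76-fold lower, with a limma adjusted p of 0.249 and an exact permutation p of 0.1. Without knockout replicate 3 the difference was smaller, -0.97, but its limma adjusted p was 0.0579, in a fit where 66 genes (0.298%) passed. Over its 14 alternatives the adjusted p of Acot2 ranged from 0.0579 to 0.683. On each array the Acot1 value minus the Acot2 value was -1.57, -1.64 and -1.11 in the knockout and -1.40, -1.12 and -1.10 in the controls. The groups overlapped, and the difference of -0.24 between them had an exact permutation p of 0.3. It was -0.40 without knockout replicate 3 and -0.13 without knockout replicate 2. An unequal difference of the cytosolic and the mitochondrial gene was not detectable with these arrays. Acot1 and Acot2 are neighbouring duplicates, and shared signal between their probe sets was not tested.

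The peroxisomal genes of the chromosome 12 row showed smaller differences. Acot4 encodes a peroxisomal enzyme for succinyl-CoA and other dicarboxylic acyl-CoAs. It read 4.95, 4.11 and 4.44 in knockout replicates 1 to 3 and 5.25, 5.22 and 5.16 in the controls. All knockout arrays lay below the narrow control range, and knockout replicate 2 lay lowest. The difference was -0.71 (SE 0.20, 95% interval -1.16 to -0.26), or 1.63-fold lower, with a limma adjusted p of 0.306. A second, dimmer probe set of Acot4 read 4.46, 4.23 and 4.04 in the knockout and 4.52, 4.24 and 4.16 in the controls. That probe set gave a difference of -0.06 with overlapping groups, and the mean of both probe sets gave -0.39.

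Acot3, which encodes a peroxisomal enzyme for long-chain acyl-CoA, read 5.56, 4.43 and 4.82 in the knockout and 6.04, 5.28 and 5.42 in the controls. The groups overlapped through knockout replicate 1. The difference was -0.64 (SE 0.29, 95% interval -1.30 to 0.02, limma adjusted p = 0.486), and it was -0.39 without knockout replicate 2 and -0.41 without control replicate 1. Acot6, which encodes a peroxisomal enzyme for branched-chain acyl-CoA, was the 1 gene of the 5 measured here from the row with a positive difference. It read 2.61, 2.93 and 3.10 in the knockout and 2.43, 2.53 and 2.64 in the controls, a difference of 0.35 (SE 0.16, 95% interval -0.01 to 0.70, limma adjusted p = 0.480). All 6 values lay below the median of the table, so the signal was dim. The groups overlapped through knockout replicate 1.

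The lowest array was not the same along the row. Relative to the control mean, knockout replicate 3 lay at -2.36 in Acot1 and -2.46 in Acot2, where knockout replicates 1 and 2 lay between -1.38 and -0.94. In Acot4 and Acot3, knockout replicate 2 was lowest, at -1.10 and -1.15, and knockout replicate 3 lay at -0.77 and -0.76. Knockout replicate 1 lay at -0.02 in Acot3, within the control range, and at -0.26 in Acot4, below every control array. In Acot1 it lay at -1.37. Acot5, the peroxisomal gene of the row that is outside the 10 selected genes, lay at 0.44, 0.03 and -0.28 in knockout replicates 1 to 3, from a dim control mean of 1.90.

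**Figure D1:**
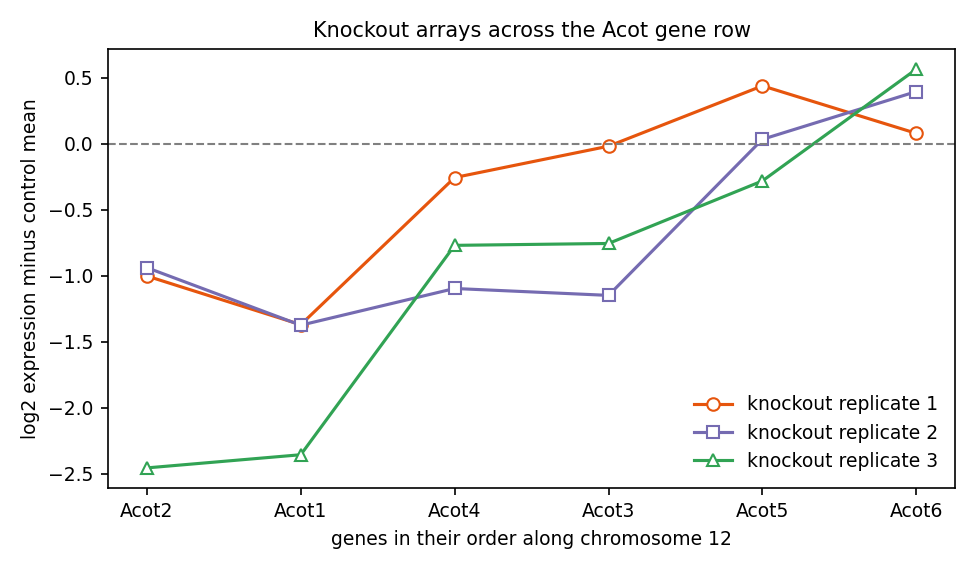
Log2 expression of each knockout array minus the control mean, for the 6 thioesterase genes in their order along chromosome 12, with 1 line per knockout replicate and the control mean at the dashed line. Acot2 and Acot1 lie lowest in replicate 3 (-2.46 and -2.36), while Acot4 and Acot3 lie lowest in replicate 2 (-1.10 and -1.15).

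The genes outside the row showed small differences or none that could be detected. Acot12 encodes the cytosolic enzyme that hydrolyses acetyl-CoA. It read 9.08, 9.03 and 8.81 in the knockout and 9.22, 9.37 and 9.11 in the controls. The gap between the groups was smaller than the SD within either of them, and the difference was -0.26 (SE 0.14, 95% interval -0.57 to 0.05, limma adjusted p = 0.544). Acot7, the cytosolic enzyme best known from brain, read 4.31, 4.26 and 4.40 in the knockout and 4.81, 4.43 and 4.54 in the controls. The gap between its groups was again smaller than the SD within either, with a difference of -0.27 (SE 0.14, 95% interval -0.59 to 0.05, limma adjusted p = 0.534). It was -0.17 without control replicate 1, the highest of its 6 arrays.

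Acot13 encodes a mitochondria-associated enzyme that binds the phosphatidylcholine transfer protein. It read 6.53, 6.55 and 6.52 in the knockout and 6.67, 6.53 and 6.42 in the controls. The knockout values lay inside the control range. The difference was -0.01 with a 95% interval of -0.30 to 0.28, which spans ratios of 0.815 to 1.21. Acot9, a mitochondrial enzyme of broad chain-length preference, read 2.72, 3.46 and 3.18 in the knockout and 3.32, 2.56 and 3.49 in the controls. Its groups overlapped fully and its mean lay just below the median of the table. The difference was -0.0018 (SE 0.26), with an interval of -0.60 to 0.59 that leaves ratios between 0.661 and 1.51 possible.

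**Figure D2:**
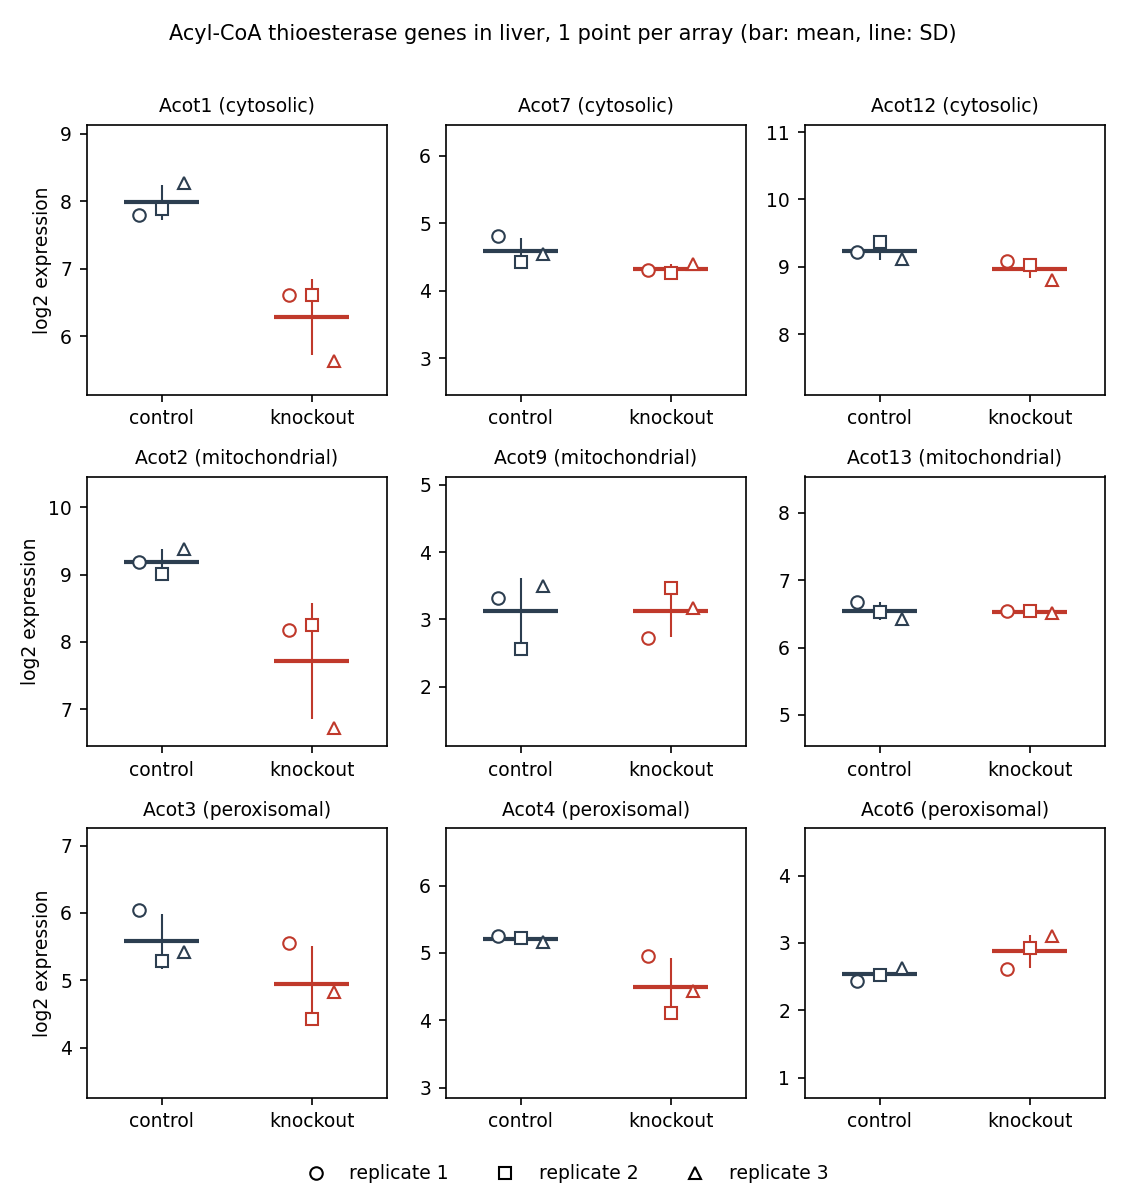
Log2 expression of the 9 measured thioesterase genes, 1 symbol per array (circle, square and triangle for replicates 1 to 3), with the group mean as a bar and the SD as a vertical line. Each panel spans 4 log2 units. Control and knockout symbols are far apart in Acot1 and Acot2, and overlap in Acot13 and Acot9.

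Set against all genes, 3 of the 9 (Acot1, Acot2 and Acot4) lay lower at an unadjusted p under 0.05, where 5.46% of all tested genes did, and 0 lay higher, where 5.06% did. None passed the adjusted threshold in limma, with 0% called over all genes. With the prior that followed intensity 1 gene, Acot1, passed, as did 0.113% of all genes in that fit. There 5 (Acot1, Acot2, Acot3, Acot4 and Acot12) lay lower at an unadjusted p under 0.05, against 6.28% of all genes. The groups did not overlap, with the knockout lower, in 5 of the 9 (Acot1, Acot2, Acot4, Acot7 and Acot12) against 9.14% of all genes, and with the knockout higher in 0 against 7.61%. At least a 2-fold lower level was measured for 2 of 9, Acot1 and Acot2, against 0.257% of all genes. The median difference over the 9 was -0.27, and over all genes it was 0.00. In all, 8 of 9 differences were below 0 (49.8% of all genes), but those of Acot9 and Acot13 were within 0.01 of 0 and took the other sign under some alternatives, that of Acot13 also after a further quantile normalization.

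By compartment, each of the 3 groups of 3 measured genes held 1 gene that was lower at an unadjusted p under 0.05 (5.46% of all genes): Acot1 in the cytosol, Acot2 in mitochondria and Acot4 in peroxisomes. The mean over the cytosolic genes was 6.67, 6.63 and 6.28 in the knockout and 7.28, 7.23 and 7.31 in the controls, a difference of -0.74. All 3 cytosolic genes lay lower without overlap, as 9.14% of all genes did, with differences of -1.70 in Acot1, -0.26 in Acot12 and -0.27 in Acot7, and the median over the 3 was -0.27. The mean over the mitochondrial genes was 5.81, 6.09 and 5.47 in the knockout and 6.39, 6.03 and 6.43 in the controls, a difference of -0.49. There the groups overlapped, and the median over the 3 genes was -0.01, with Acot2 alone at an unadjusted p under 0.05. The mean over the peroxisomal genes was 4.37, 3.82 and 4.12 in the knockout and 4.57, 4.34 and 4.40 in the controls, a difference of -0.34 with a median of -0.64. The peroxisomal groups overlapped through knockout replicate 1, and without knockout replicate 2 the difference was -0.19. These means are descriptions of 3 genes each. The cytosolic mean is set largely by Acot1 and the mitochondrial mean by Acot2. In the peroxisomal mean, Acot3 (-0.64) and Acot4 (-0.71) lay lower and the dim Acot6 (0.35) lay higher. By position, 3 of the 5 measured genes in the chromosome 12 row were lower at an unadjusted p under 0.05 (median difference -0.71). Of the 4 elsewhere, 0 were (median -0.13), beside 5.46% of all genes. With the prior that followed intensity, Acot3 in the row and Acot12 outside it also lay lower at that p (6.28% of all genes). Groups did not overlap, with the knockout lower, in 3 of the 5 and 2 of the 4 (9.14% of all genes). A difference between these positions was not tested.

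**Figure D3:**
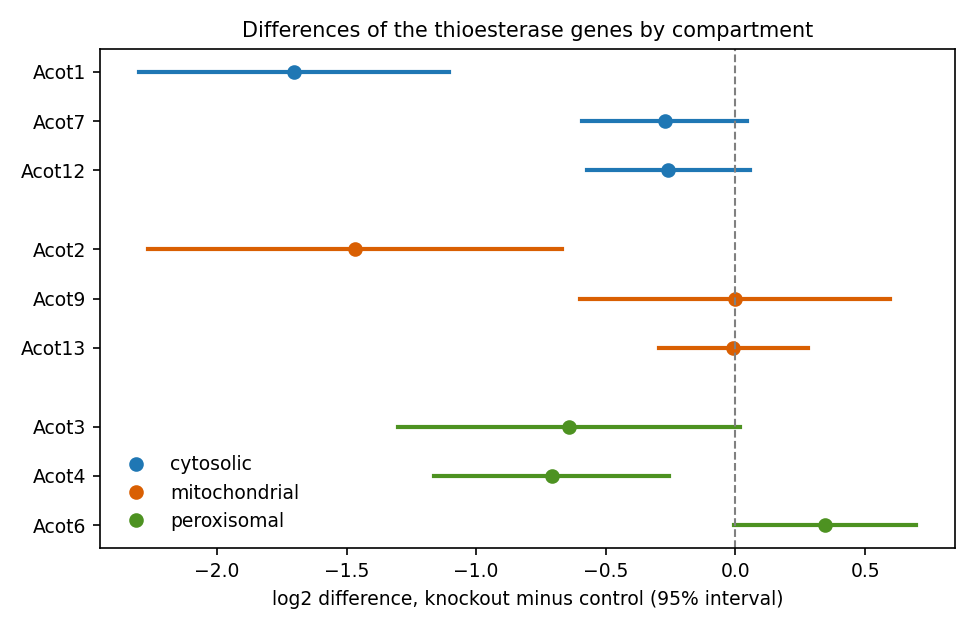
Log2 difference, knockout minus control, of the 9 measured genes with the 95% interval of the limma fit, grouped by compartment in colour. The intervals of Acot1, Acot2 and Acot4, 1 in each compartment, lie wholly below 0, and the other 6 intervals include 0.

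The 5 genes with the profile most like that of Acot1 over the 6 arrays were found by the root mean square distance between profiles after removing each gene's mean, among 13056 genes at or above the median signal. Acot2 was nearest, at a distance of 0.23 log2 units. Next came Ehhadh (0.30), which encodes the bifunctional enzyme of peroxisomal beta-oxidation, and Acaa1b (0.35), which encodes a peroxisomal thiolase. Ehhadh read 9.85, 9.76 and 8.03 in the knockout and 10.63, 10.97 and 10.89 in the controls, so knockout replicate 3 lay lowest as in Acot1 and Acot2. Acaa1b read 9.06, 8.65 and 8.27 in the knockout and 9.95, 9.75 and 9.87 in the controls. Chrna2, a nicotinic receptor subunit gene, and Asic5, an ion channel gene, were both at 0.43. Knockout replicate 3 was the lowest knockout array in Chrna2 (5.43, 5.19 and 3.93) but the highest in Asic5 (4.10, 4.01 and 4.19). This is a likeness of 6 values and is given without a test.

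Of the other thioesterase genes, 0 of 8 lay at an unadjusted p under 0.05 in limma in either direction, where 10.5% of all genes did. The list's median was -0.11. With knockout replicate 3 left out it was -0.073, and 2 genes lay lower at that p, where 6.19% of all genes did in that fit. Baat, which conjugates bile acids and also hydrolyses acyl-CoA, read 7.88, 7.76 and 8.31 in the knockout and 8.18, 8.34 and 8.15 in the controls (difference -0.24). Knockout replicates 1 and 2 lay below the controls and replicate 3 among them. Them4, a mitochondrial thioesterase gene, differed by -0.31, and Hibch, which encodes a hydrolase of valine breakdown, by -0.07. Acot11, known from brown fat, differed by -0.15, and Acot10, a relative of Acot9, by 0.19. Them5 (-0.24), Olah (0.18), which encodes a medium-chain enzyme of fatty acid synthesis, and Acot5 (0.06) lay below the median of the table. The groups of all 8 genes overlapped.

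Genes that make, carry or use acyl-CoA were described from lists chosen around the thioesterases, each beside the 5.46% of all genes that lay lower and the 5.06% that lay higher at an unadjusted p under 0.05. No gene of these lists passed the adjusted threshold in limma. In peroxisomal beta-oxidation, which shortens very long and branched chains and shares its compartment with Acot3, Acot4 and Acot6, 9 of 16 measured genes lay lower and 1 higher at that p, with a median of -0.36. Without knockout replicate 3, 5 lay lower at that p, where 6.19% of all genes did in that fit. With control replicate 2 left out the count was also 5, beside 3.42% of all genes. Ehhadh differed by -1.62 (-1.03 without knockout replicate 3) and Acaa1b by -1.20. Pex11a, which acts in peroxisome proliferation, read 6.22, 6.23 and 6.30 in the knockout and 7.19, 7.19 and 7.09 in the controls (-0.90, adjusted p = 0.0826). Abcd2, a peroxisomal fatty acyl-CoA transporter, was the gene in the other direction, at 7.34, 7.06 and 6.92 in the knockout and 6.68, 5.40 and 5.37 in the controls (1.29, adjusted p = 0.261). Scp2, which encodes a sterol carrier protein and a thiolase, differed by -0.50.

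In the acyl-carnitine shuttle, which moves acyl groups into mitochondria, 2 of 6 genes lay lower and 0 higher at an unadjusted p under 0.05, with a median of -0.34. Without knockout replicate 3, 1 lay lower, where 6.19% of all genes did in that fit, and the median was -0.17. Cpt2, the inner-membrane carnitine palmitoyltransferase, differed by -0.63 and the carnitine transporter gene Slc22a5 by -0.58 (-0.37 without knockout replicate 3). Slc25a20, the carnitine-acylcarnitine carrier, differed by -0.40 and Crat, carnitine acetyltransferase, by -0.28, both with p of at least 0.05. Among acyl-CoA synthetases, which catalyse the reaction that thioesterases reverse, 2 of 15 lay lower and 0 higher at an unadjusted p under 0.05, with a median of -0.16 (-0.11 without control replicate 2). These were the fatty acid transport protein genes Slc27a1 (5.45, 5.10 and 4.50 against 5.71, 5.85 and 5.64, difference -0.71, and -0.46 without knockout replicate 3) and Slc27a4 (-0.43). Acsl5 (-0.34) and Acsm1 (-0.27) had larger p. Acsl1, the main long-chain synthetase gene of liver, had no probe set with 1 symbol and was not analysed here. The same holds for Acsl3 and Acsm3.

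Among genes of coenzyme A synthesis, breakdown and transport, 3 of 15 lay lower and 0 higher at an unadjusted p under 0.05, with a median of -0.14. Ppcdc, a gene of coenzyme A synthesis, differed by -0.49, Vnn1, a pantetheinase gene, by -0.69, and Nudt7, which encodes a peroxisomal coenzyme A diphosphatase, by -0.46. The count of lower genes in this list was 1 without knockout replicate 1 (4.54% of all genes) or control replicate 1 (4.08%). Vnn1 differed by -0.44 without knockout replicate 3. Slc25a17, a peroxisomal cofactor carrier gene, differed by -0.25 with p of at least 0.05. Among fatty acid and acyl-CoA binding proteins, 2 of 10 lay lower and 1 higher at an unadjusted p under 0.05, with a median of -0.17. Fabp2 read 7.92, 7.76 and 7.45 in the knockout and 8.52, 8.53 and 8.32 in the controls (-0.75). Fabp1, the main fatty acid binding protein gene of hepatocytes, differed by -0.56 without overlap. Without knockout replicate 3, Fabp1 differed by -0.34 and 1 gene of the list lay lower at that p (6.19% of all genes). With knockout replicate 2 left out, 4 genes of the list did (6.21% of all genes). Fabp4, known from adipocytes, macrophages and endothelium, differed by 0.99 (0.55 without knockout replicate 2) and Fabp5 by 0.31. The median difference of macrophage markers on the same arrays was 0.82, and their part in the Fabp4 difference was not tested.

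Among genes of PPARA and its partners, 3 of 12 measured genes lay lower and 0 higher at an unadjusted p under 0.05, with a median of -0.13. Leaving out single arrays gave 0 to 2 lower, where 3.42% to 6.21% of all genes lay lower in those fits. Ppara itself read 7.17, 7.01 and 7.07 in the knockout and 7.47, 7.31 and 7.27 in the controls, a difference of -0.26 (limma adjusted p = 0.507). The groups did not overlap. Hnf4a, a hepatocyte transcription factor, differed by -0.36, Creb3l3, a liver transcription factor, by -0.35, and Fgf21, a hepatokine gene that PPARA controls, by -0.64.

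**Figure D4:**
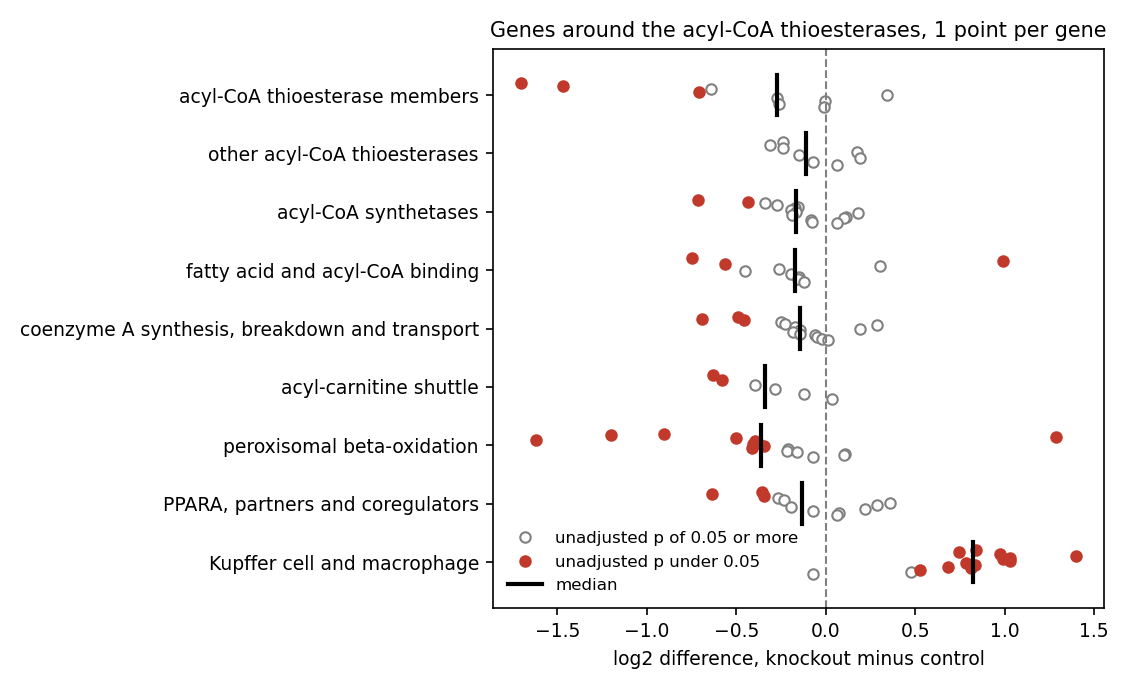
Log2 differences, knockout minus control, with 1 point per gene for the 9 thioesterase genes, 7 lists around them and the macrophage markers. Filled points lie at an unadjusted p under 0.05, and the black bar is the median. Acot1 and Acot2 (-1.70 and -1.47) and Ehhadh (-1.62) lie farthest left, and the macrophage median is at 0.82.

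Markers of other liver cells were read on the same arrays, beside the 5.06% of all genes that lay higher and the 5.46% that lay lower at an unadjusted p under 0.05, and the 49.8% with a difference below 0. Of 14 Kupffer cell and macrophage markers, 13 had positive differences and 12 lay higher at an unadjusted p under 0.05, with a median of 0.82. Without knockout replicate 2 their median was 0.49, with 9 higher at that p, where 6.12% of all genes lay higher. Without knockout replicate 3 their median was 1.07, with 13 higher, where 5.97% of all genes lay higher. Their summed linear level was 905 to 2226 in the knockout and 691 to 753 in the controls. Endothelial markers had 7 of 8 positive differences (2 at an unadjusted p under 0.05, median 0.22), and stellate cell and fibroblast markers 8 of 10 (1 higher and 1 lower, median 0.10). Neither tendency held without knockout replicate 2. Endothelial markers then had 4 of 8 positive differences and a median of -0.009. Stellate cell and fibroblast markers then had 4 of 10 and a median of -0.059. Lymphocyte markers had 7 of 7 positive differences (1 at an unadjusted p under 0.05, median 0.11) and neutrophil markers 6 of 8 (1, median 0.14), and 4 of the lymphocyte and 5 of the neutrophil markers lay below the median of the table. Markers of cholangiocytes (5 measured, median 0.10), adipocytes (4, 0.03) and exocrine pancreas (4, 0.03) held 0 genes at an unadjusted p under 0.05. Of the 10 hepatocyte markers, 5 had positive and 5 negative differences (1 higher and 1 lower at an unadjusted p under 0.05), with a median of 0.00. What part the higher macrophage markers had in the differences of the thioesterase genes was not tested.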

How the data were processed

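Liver RNA of 6 samples was measured, 3 knockout and 3 control, with 1 array each. Per the labels' protocols, biotin-labelled cRNA was made from total RNA. RMA in Affymetrix Expression Console 1.4.1 is named in the submitters' processing notes, and the deposited table holds the authors' log2 expression values for 41345 probe sets. RMA gives all arrays the same distribution, so a shift of most transcripts in one direction would not be visible. No genome build is given in the sources used here, and promoter coordinates are those of the RefSeq table.

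Of the probe sets, 23521 had 1 gene symbol in the platform annotation, 1814 had several and 16010 were not listed. The brightest probe set was used for the 1082 genes with several, without a filter on dim signals. Groups were compared in limma 3.58.1 (lmFit, then eBayes; R 4.3.3, statmod 1.5.0), with 2-sided p-values adjusted by Benjamini-Hochberg over 22180 genes at a threshold of 0.05, and the fit was tested on simulated data. Exact permutation tests ran over samples. Whether replicates came from different animals is not in the labels. The p-values thus measure no more than the spread among these arrays, which may be technical, and their number limits the precision.

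The 10 genes, the 7 pathway lists and the 9 marker lists were chosen with earlier results of these data known. The text names all 10 genes, all other thioesterase genes of the list, up to 4 genes of smallest p in each pathway list and the 5 profiles nearest to Acot1. Alternatives were further quantile normalization, median centring, a filter on probe sets below the median, an intensity trend or robust variance prior, array weights, the mean of a gene's probe sets, the replicate number as a block and leaving out each array.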

Additional observations from a re-analysis of the deposited data

How the results depend on the processing

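Of 124 values of single thioesterase genes under the alternatives, 115 kept their direction and their side of the threshold, 7 took the other sign and 2, both of Acot1, passed the threshold. The sign turned only for Acot13, at 0.05 after further quantile normalization and 6.7e-05 with array weights, and for Acot9, at 0.0013 with array weights. Leaving out 1 array at a time gave -0.071 to 0.058 for Acot13 and -0.28 to 0.20 for Acot9. The count of all genes past the threshold was 0 in the comparison as reported, 15 with the filter on dim probe sets, 25 with the intensity trend, 1 with the replicate block and 0 to 66 without single arrays, the 66 arising without knockout replicate 3. Of the thioesterase genes, 1 passed with the intensity trend (0.113% of all genes in that fit) and 0 to 1 passed without single arrays. The 1 was Acot1 without knockout replicate 3, where 0.298% of all genes passed. With the trend, 5 lay lower at an unadjusted p under 0.05, against 6.28% of all genes. Of the measured genes 1, the dim Acot6, lay higher with the replicate block (5.18% of all genes) and 0 to 1 without single arrays, the 1 being Acot6 without knockout replicate 1 (4.83%). The median difference of the acyl-CoA synthetases was -0.18 to -0.11 without single arrays, and that of the acyl-carnitine shuttle -0.43 to -0.17, the latter without knockout replicate 3. Further quantile normalization gave -0.11 for the binding proteins. The compartment means, the Acot1 minus Acot2 difference and the medians of the 7 pathway lists kept their sign in every alternative run. The marker lists were rerun only without single arrays. There the medians of macrophage, lymphocyte and neutrophil markers kept their sign. Those of hepatocyte, endothelial, stellate cell and fibroblast, cholangiocyte, adipocyte and exocrine pancreas markers took the other sign without at least 1 array. The cause of these changes was not tested. Whether the replicate numbers pair the samples is not settled here. The correlations of deviations between same-numbered arrays were 0.0064, 0.053 and 0.015, and those between arrays of other numbers are not given. The block gave Acot1 a limma adjusted p of 0.175. Acot6 and Acot9 had no value under the dim filter, which removes them.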
